A study of Mus musculus with 4 samples.

Results

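Skeletal muscle genes were followed in mouse skin as a sign of the tissue layers that had been sampled. The set held 35 genes chosen by name for the contractile apparatus, the calcium machinery and the energy supply of skeletal muscle fibres. Of these, 34 were read by 53 of the 41174 probes on the arrays, out of 16862 genes that could be named and read on all 4 arrays. Neb, the gene of nebulin, was matched by no probe through RefSeq accessions, the only identifier used, so an unmatched Neb probe may exist. The genes divided into 9 for the thick filament, 7 for the thin filament besides Neb, 9 for the Z-disc, titin and the fibre's cytoskeleton, 5 for calcium handling and 4 for energy supply.

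The groups were treated tail skin, untreated tail skin, treated back skin and untreated back skin, each with 3 animals by the study design and 1 single-colour array. In both treated groups a cream of methyl aminolevulinate (Metvix) was applied, the skin stayed in darkness for 2.5 h and red light of 636 nm followed, with 10 J/cm2 given to tails and 2.5 J/cm2 to backs. Samples were taken 48 h after that. Back animals were shaved for treatment, and whether the untreated back animals were shaved is not given in the sources used here, nor are strain and age, nor any pooling of RNA over the 3 animals. Sample labels speak of skin, whereas the extraction protocol speaks of back skin and of tail epidermis. With 1 array per group there was no replicate error, so every difference below compares 2 arrays, has no replicate check and was not tested.

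Skeletal muscle contracts when myosin heads of the thick filaments pull on actin in the thin filaments, which are anchored at the Z-discs. Calcium released from the sarcoplasmic reticulum binds troponin and opens the actin sites, and pumps then return it to the store. Fast and slow fibres use different isoforms of myosin, its light chains and the troponins. In mice a thin sheet of striated muscle, the panniculus carnosus, lies beneath the fat of the back skin, and the skin of the tail covers the muscles and tendons that move the tail vertebrae.

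A level is the log2 of the background-corrected spot signal minus that of the array's 75th percentile, so that 0 stands for the 75th percentile. Levels are compared within a gene across arrays and not between genes, since each probe has its own brightness. The 75th percentile was 909 in treated tail, 7261 in untreated tail, 1204 in treated back and 1860 in untreated back. In the same order 84.7%, 88.7%, 79.2% and 82.7% of all genes were well above background, as were 27, 30, 25 and 24 of the 34 muscle genes. Calls of higher or lower required a difference of at least 2-fold, which is 1 on the log2 scale. Where a gene was well above background on a single array of the pair, its difference is a bound, written as "at least". The bound was kept only if it put that array higher, and otherwise the gene had no value. So Des, Actn3, Trim63 and Pygm, of the tail arrays well above background in the untreated one only, had no tail value. The scanner's own error of a difference was 0.25 at the median over the muscle genes, which covers spots and not animals.

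Several genes that define skeletal muscle were at or near background. Casq1, the calcium buffer of the sarcoplasmic reticulum, Myot, the Z-disc protein myotilin, and Myl2, the regulatory light chain of slow fibres and ventricle, were not well above background on any of the 4 arrays. These were 3 of the 34 muscle genes, and 1602 of all 16862 genes were likewise dim on all 4. Ckm, the muscle creatine kinase, had signals of 17.5 in treated tail, 60.5 in untreated tail, 12.5 in treated back and 19.1 in untreated back, and the back values were not well above background. Des, the intermediate filament desmin, and Trim63, a ubiquitin ligase of the sarcomere, were well above background in untreated tail only, as was Actn3. No muscle gene was saturated on any array, while the keratins Krt5, Krt14, Krt1 and Krt10 and the envelope protein Lor were saturated on all 4. Over the arrays, 23 of 34 muscle genes (67.6%) were well above background on all 4, against 77.0% of all genes. Only 6 of the 34 had signals of at least 200 on all 4 arrays, namely Mylpf, Myl3, Tnni2, Tnnc2, Tcap and Eno3. Of all 16862 genes, 8919 did. In whole-tissue RNA, fewer cells of a type and less RNA per cell cannot be told apart.

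**Figure D1:**
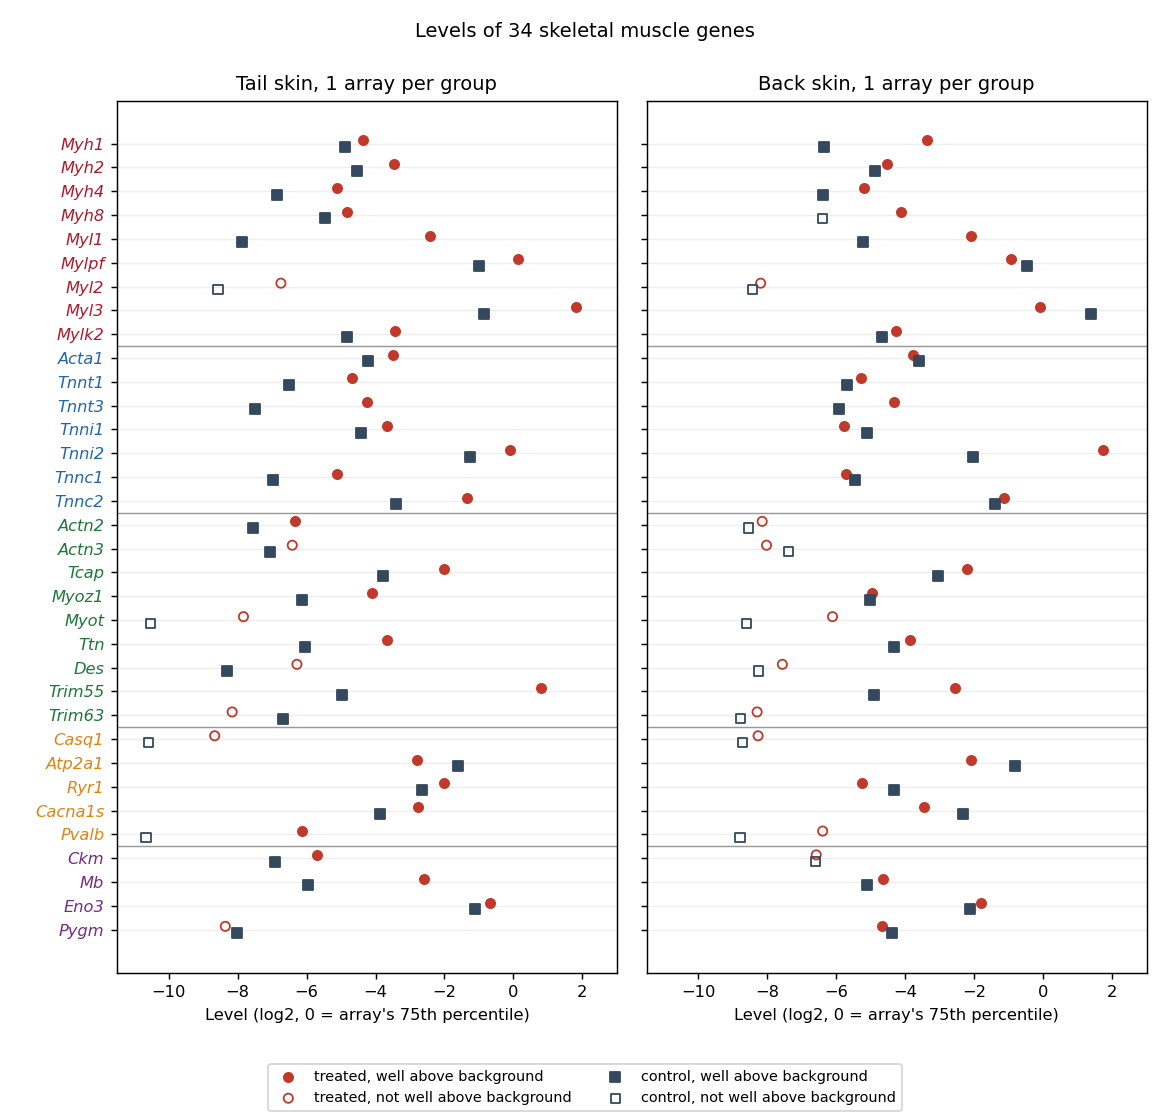
Levels of the 34 skeletal muscle genes on the treated (red circles) and control (dark squares) arrays of tail skin (left) and back skin (right), in log2 units with 0 at the array's 75th percentile. Open symbols are signals not well above background, and gene names are coloured by role with lines between the roles. In tail skin the treated symbol lies to the right of the control symbol for most genes, whereas in back skin the order varies.

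The promoters of the genes called in both skins are shown because these are the genes on which the comparison of the skins turns: Myh4 and Myl1 were higher in both, Atp2a1 was lower in both, and Myl3 and Cacna1s were higher in the tail and lower in the back. Tnnt3, Tnni2 and Trim55, also higher in both, are named without a promoter. Each sequence is the 250 bases before the gene's start, read 5′ to 3′ along the gene, from RefSeq on build GRCm38.p6. Capitals mark CAGCTG, the E-box form that myogenic factors bind in muscle genes, TATAAA on either strand, and the MEF2 consensus. In Myh4 one match to TATAAA on the reverse strand lies within the MEF2 match.
Myh4, chr11:67237562-67237811, plus strand: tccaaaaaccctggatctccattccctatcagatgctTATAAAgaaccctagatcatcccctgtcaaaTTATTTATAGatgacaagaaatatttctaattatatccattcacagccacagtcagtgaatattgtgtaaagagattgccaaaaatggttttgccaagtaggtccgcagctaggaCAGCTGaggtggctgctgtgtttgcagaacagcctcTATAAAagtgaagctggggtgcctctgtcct
Myl1, chr1:66945057-66945306, minus strand: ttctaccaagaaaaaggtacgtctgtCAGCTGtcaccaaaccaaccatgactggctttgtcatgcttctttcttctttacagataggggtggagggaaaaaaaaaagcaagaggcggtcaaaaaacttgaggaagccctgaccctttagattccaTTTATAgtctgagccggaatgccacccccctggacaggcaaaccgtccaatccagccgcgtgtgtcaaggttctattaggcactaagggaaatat
Atp2a1, chr7:126463074-126463323, minus strand: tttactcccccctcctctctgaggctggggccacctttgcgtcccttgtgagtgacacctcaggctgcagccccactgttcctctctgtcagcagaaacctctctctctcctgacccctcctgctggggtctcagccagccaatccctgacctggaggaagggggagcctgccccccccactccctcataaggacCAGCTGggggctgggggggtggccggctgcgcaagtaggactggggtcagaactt
Cacna1s, chr1:136052561-136052810, plus strand: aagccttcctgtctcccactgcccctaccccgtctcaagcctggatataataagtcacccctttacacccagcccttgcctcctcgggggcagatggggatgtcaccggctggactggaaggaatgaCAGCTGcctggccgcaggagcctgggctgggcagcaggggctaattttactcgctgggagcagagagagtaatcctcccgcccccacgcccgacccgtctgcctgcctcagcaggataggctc
Myl3, chr9:110763428-110763677, plus strand: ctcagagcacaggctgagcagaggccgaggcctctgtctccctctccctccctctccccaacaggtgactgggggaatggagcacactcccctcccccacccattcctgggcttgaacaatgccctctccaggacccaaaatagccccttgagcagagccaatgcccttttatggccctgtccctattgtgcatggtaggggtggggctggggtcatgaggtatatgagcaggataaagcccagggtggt

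Promoter windows were matched for 26 of the 34 genes, 31 windows in all. CAGCTG, which reads the same on both strands, was in 16 of the 31 (51.6%), against 4271 of the 32851 windows of the RefSeq table. TATAAA was in 8 windows (25.8%, against 12.4%) and the MEF2 consensus in 5 (16.1%, against 2.92%). Genes that were higher and genes that were lower after treatment both held CAGCTG, and the window of Myl3 held none of the motifs. A match is a description of these letters and says nothing of binding in these samples.

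The first comparison asked how muscle genes stood in tail skin after treatment. Of the 27 with a value, 20 were higher in treated tail (74.1%) and 1 was lower, with a median difference of 1.39, although with scaling to the spike-in controls the median was -0.68 and 13 of the 20 fell below 0. That scaling moved the median of all genes by -1.96, to -1.63, and with normexp background correction the muscle median was 3.57. The background was high: of the 12858 genes with a value, 27.2% were higher and 6.55% were lower, and their median was 0.33. The background also depended on brightness. When all genes were divided at the median of their mean level, the dimmer ones held 31 of the 34 muscle genes, and 46% of the dimmer genes with a value were higher, against 10.9% of the brighter ones. Of the dimmer muscle genes with a value 17 of 24 were higher (70.8%), and the 3 brighter ones, Mylpf, Myl3 and Tnni2, were all higher. After cyclic loess, which removes differences that follow brightness, 14 of 29 muscle genes were higher against 14.2% of all genes, with a median of 0.89 against -0.07. All 14 were among the 20, and the 6 no longer called were Myh2, Myh4, Mylk2, Actn2, Cacna1s and Ckm. Among genes whose signal reached 200 on both tail arrays, 6 of 8 muscle genes were higher, against 15.6% of all genes.

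**Figure D2:**
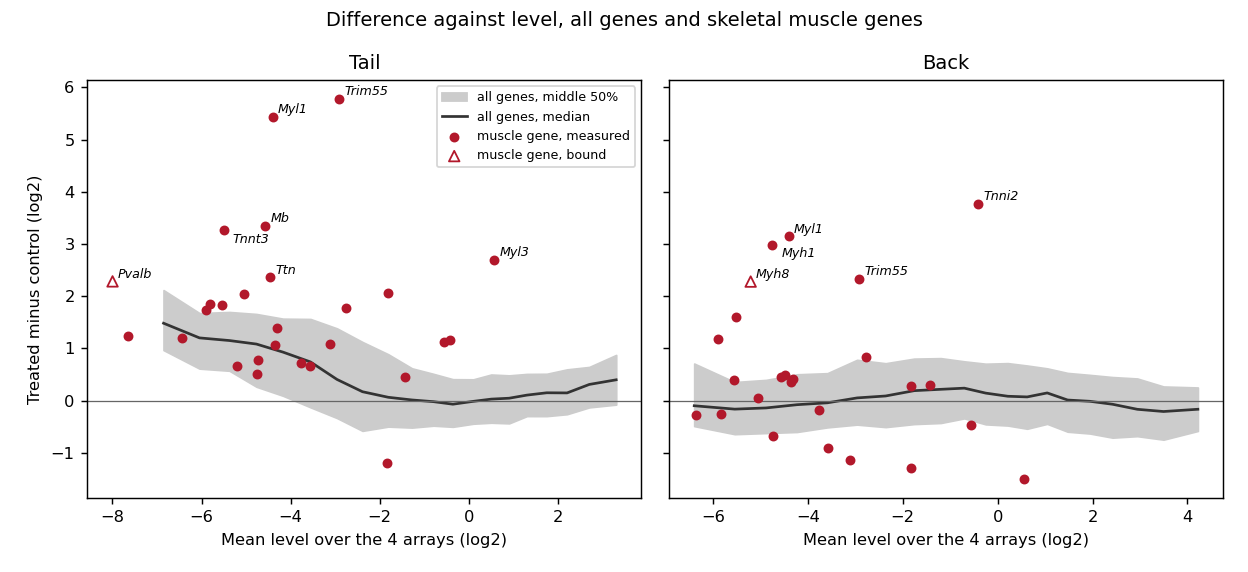
Treated minus control difference (log2) against the mean level over the 4 arrays (log2) in tail (left) and back (right). The line is the median and the band the middle 50% of all genes in 20 bins of level, red points are measured muscle genes and open triangles are bounds. In the tail the line rises toward dim genes and Trim55, Myl1, Mb and Tnnt3 lie far above the band, and in the back the line stays near 0 with Tnni2, Myl1, Myh1, Myh8 and Trim55 above the band.

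In the second comparison, back skin after treatment, muscle genes went in both directions. Of the 25 with a value, 7 were higher in treated back (28%, background 13.6%) and 3 were lower (12%, background 12.6%), with a median of 0.35 against -0.01 over all genes. The 7 were Myh1, Myh4, Myh8, Myl1, Tnnt3, Tnni2 and Trim55, all of them parts of the filaments except Trim55. The 3 were Myl3, Atp2a1 and Cacna1s. With the mean of a gene's probes in place of the brightest, Myh8 was at 0.57, Myl3 at -0.27 and Atp2a1 at -0.41, and Ryr1 was called lower at -1.33. All 10 genes kept their call after cyclic loess, where 13.1% of all genes were higher and 12.9% lower. The back arrays showed little dependence on brightness, with 15.5% of the dimmer and 12.2% of the brighter genes higher.

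Among the thick filament genes, 6 of 8 were higher in treated tail and none lower, and in treated back 4 were higher and 1 lower. Over all genes 27.2% were higher and 6.55% lower in the tail, and 13.6% and 12.6% in the back. Of the dimmer genes 46% were higher in the tail. After cyclic loess 3 of the 8 were higher in the tail, against 14.2% of all genes, and the back counts stayed. Myl1, the alkali light chain of fast myosin, differed the most of the thick filament genes in the tail. Its level was -2.43 in treated tail, -7.87 in untreated tail, -2.09 in treated back and -5.24 in untreated back. Both treated arrays were thus high and both untreated arrays low, with differences of 5.44 in the tail (43.3-fold, scanner error 0.30) and 3.15 in the back (8.86-fold, 0.24). The large tail difference rests on a signal of 31.1 in untreated tail, an array on which probes counted as well above background from 21.2 on. Myl3, the alkali light chain of slow fibres and ventricle, stood at 1.83 in treated tail, -0.86 in untreated tail, -0.10 in treated back and 1.39 in untreated back. It was higher by 2.69 after treatment in the tail and differed by -1.50 in the back, at signals of 1121 and above on all arrays. A dimmer probe of Myl3 was also higher in the tail, by 2.67, but in the back it was higher by at least 0.95, opposite in direction to the brighter probe.

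Mylpf, the regulatory light chain of fast fibres, was bright on every array, with levels of 0.13 in treated tail, -0.99 in untreated tail, -0.94 in treated back and -0.46 in untreated back. It was higher by 1.11 in the tail and within 2-fold in the back (-0.48). Mylk2, the kinase that phosphorylates that light chain, stood at -3.43 in treated tail, -4.82 in untreated tail, -4.28 in treated back and -4.69 in untreated back. Treated tail was the highest of the 4 arrays, with differences of 1.39 in the tail and 0.41 in the back.

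Of the myosin heavy chains, Myh1, which encodes the IIx isoform, had levels of -4.37 in treated tail, -4.88 in untreated tail, -3.37 in treated back and -6.35 in untreated back. It differed by 0.51 in the tail and was higher by 2.99 in the back. A second probe of Myh1 gave the opposite division, 3.08 in the tail and 0.42 in the back, so the skin in which Myh1 moved depended on the probe. Myh4, the IIb isoform of the fastest fibres, had levels of -5.12 in treated tail, -6.86 in untreated tail, -5.21 in treated back and -6.38 in untreated back. On that probe it was higher by 1.74 in the tail and 1.17 in the back. A second probe of Myh4 was not well above background in treated tail and gave no tail value, and it was higher by at least 2.63 in treated back. With the mean of both probes Myh4 was at 0.89 in the tail, within 2-fold. Myh2, the IIa isoform, stood at -3.48 in treated tail, -4.55 in untreated tail, -4.54 in treated back and -4.88 in untreated back, and was higher by 1.07 in the tail and differed by 0.35 in the back. Myh8, the perinatal isoform, had levels of -4.82 in treated tail, -5.47 in untreated tail, -4.12 in treated back and -6.40 in untreated back. It differed by 0.66 in the tail and was at least 4.85-fold higher in the back, where untreated back was not well above background. These heavy chains are near-identical neighbours on chromosome 11, so their probes may read each other's transcripts.

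The thin filament genes were higher in 5 of 7 cases in treated tail and in 2 of 7 in treated back, with none lower in either. The shares of all genes that were higher were 27.2% in the tail and 13.6% in the back. After cyclic loess the thin filament counts were the same. Tnni2, the inhibitory troponin of fast fibres, showed the largest back difference of all muscle genes with a value. Its level was -0.09 in treated tail, -1.26 in untreated tail, 1.73 in treated back and -2.03 in untreated back. The back arrays thus held both its highest and its lowest level, with a difference of 3.77 (13.6-fold, scanner error 0.20), and the tail difference was 1.17. Tnnt3, the troponin T of fast fibres, stood at -4.24 in treated tail, -7.51 in untreated tail, -4.33 in treated back and -5.93 in untreated back. Its differences were 3.27 in the tail, or 2.52 after cyclic loess, and 1.60 in the back, and a second probe was higher by at least 2.74 in the tail and at least 1.90 in the back. Both treated arrays were above both untreated arrays for Tnnt3, as for Myl1.

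Tnnc2, the calcium-binding troponin of fast fibres, was low in untreated tail only, with levels of -1.34 in treated tail, -3.40 in untreated tail, -1.13 in treated back and -1.40 in untreated back. Its difference was 2.06 in the tail and 0.27 in the back. Tnnt1, the slow troponin T, stood at -4.68 in treated tail, -6.52 in untreated tail, -5.30 in treated back and -5.69 in untreated back. Tnnc1, the slow calcium-binding troponin, had levels of -5.13 in treated tail, -6.97 in untreated tail, -5.72 in treated back and -5.47 in untreated back. Both were highest in treated tail and lowest in untreated tail. They were each higher by 1.84 in the tail, or by 1.08 and 1.02 after cyclic loess, and stood at 0.40 and -0.25 in the back. Tnni1, the slow inhibitory troponin, had levels, on its brightest probe, of -3.65 in treated tail, -4.43 in untreated tail, -5.79 in treated back and -5.11 in untreated back. It differed by 0.77 in the tail and -0.68 in the back. A second probe of Tnni1 was higher by 1.78 in treated tail, and the mean of both probes was higher there by 1.27.

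Acta1, skeletal actin and a main protein of the thin filament, was among the steadiest, with levels of -3.48 in treated tail, -4.20 in untreated tail, -3.79 in treated back and -3.61 in untreated back. Its differences were 0.72 and -0.17.

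Of the 9 Z-disc, titin and cytoskeleton genes, 5 had a value in the tail and all 5 were higher in treated tail, although Actn2 was at -0.06 after cyclic loess. In the back 1 of 4 was higher. Over all genes 27.2% were higher in the tail and 13.6% in the back. After cyclic loess 7 of the 9 genes had a tail value, 4 of them higher and 1 lower. Trim55, a ubiquitin ligase that binds titin in the sarcomere, showed the largest tail difference of the set. It stood at 0.80 in treated tail, -4.98 in untreated tail, -2.57 in treated back and -4.90 in untreated back. The untreated arrays were alike and the treated ones above them, by 5.78 in the tail (54.8-fold, scanner error 0.21) and 2.34 in the back (5.05-fold). A single probe read Trim55, at signals of 1581 in treated tail, 231 in untreated tail, 203 in treated back and 62.2 in untreated back. Titin itself, Ttn, had levels of -3.67 in treated tail, -6.03 in untreated tail, -3.85 in treated back and -4.33 in untreated back. The tail difference was 2.36 and the back difference 0.48. Of the 7 other Ttn probes none was measured on both tail arrays, and 1 was higher by at least 2.44 in treated tail.

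Tcap, which caps titin at the Z-disc, had levels of -2.01 in treated tail, -3.78 in untreated tail, -2.22 in treated back and -3.05 in untreated back. It was lowest in untreated tail, was higher by 1.77 in treated tail and differed by 0.83 in the back. Myoz1, a calcineurin-binding Z-disc protein of fast fibres, stood at -4.09 in treated tail, -6.13 in untreated tail, -4.97 in treated back and -5.02 in untreated back. Its back arrays were alike, and it was higher by 2.04 in the tail, or 1.38 after cyclic loess, and its second probe by 2.30, with 0.05 and 0.33 in the back. Actn2, an alpha-actinin that cross-links actin at the Z-disc, was at 1.23 in the tail on signals of 11.3 in treated tail and 38.4 in untreated tail. Its fast-fibre relative Actn3 had no value in any comparison, and neither did Myot, Des or Trim63. After cyclic loess Trim63 was called lower in treated tail, at -1.19, and Actn3 was at -0.54.

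Calcium genes were the least uniform, with 2 of 4 higher and 1 lower in the tail and 2 of 3 lower in the back. Over all genes 27.2% were higher and 6.55% lower in the tail, and 12.6% were lower in the back. After cyclic loess 1 of 4 calcium genes was higher and 1 lower in the tail. Atp2a1, the calcium pump SERCA1 of fast fibres, had levels of -2.80 in treated tail, -1.61 in untreated tail, -2.10 in treated back and -0.81 in untreated back. Treated arrays lay below untreated ones in both skins, by -1.19 in the tail and -1.29 in the back. The second, dimmer probe of Atp2a1 was higher by at least 3.27 in treated tail, so in the tail its direction depended on the probe. Cacna1s, the voltage sensor of the muscle calcium channel, stood at -2.78 in treated tail, -3.86 in untreated tail, -3.46 in treated back and -2.32 in untreated back. It was higher by 1.08 in the tail and differed by -1.14 in the back. A dimmer probe of Cacna1s ran the same way, at 2.00 in the tail and with a bound of -0.39 in the back. Ryr1, the calcium release channel, was higher in both tail arrays than in both back arrays, at -2.00 in treated tail, -2.66 in untreated tail, -5.26 in treated back and -4.34 in untreated back. It differed by 0.66 in the tail and -0.92 in the back, both within 2-fold, and a second probe of Ryr1 was at 0.28 in the tail and had a bound of -1.23 in the back. Pvalb, the calcium buffer parvalbumin of fast fibres, was well above background in treated tail only, where it was at least 4.86-fold higher at a signal of 12.9.

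Among the energy genes Mb, the oxygen-binding protein myoglobin, showed the main difference. Its level was -2.60 in treated tail, -5.95 in untreated tail, -4.65 in treated back and -5.10 in untreated back, so that treated tail stood above the other 3 arrays. The tail difference was 3.35 (10.2-fold, scanner error 0.21), or 2.76 after cyclic loess, and the back difference 0.46. Ckm, at -5.70 in treated tail and -6.91 in untreated tail, differed by 1.21 there, or 0.22 after cyclic loess, and had no value in the back. Eno3, the muscle enolase of glycolysis, differed by 0.45 in the tail and 0.30 in the back. Pygm, the muscle glycogen phosphorylase, had no value in the tail and was at -0.27 in the back.

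**Figure D3:**
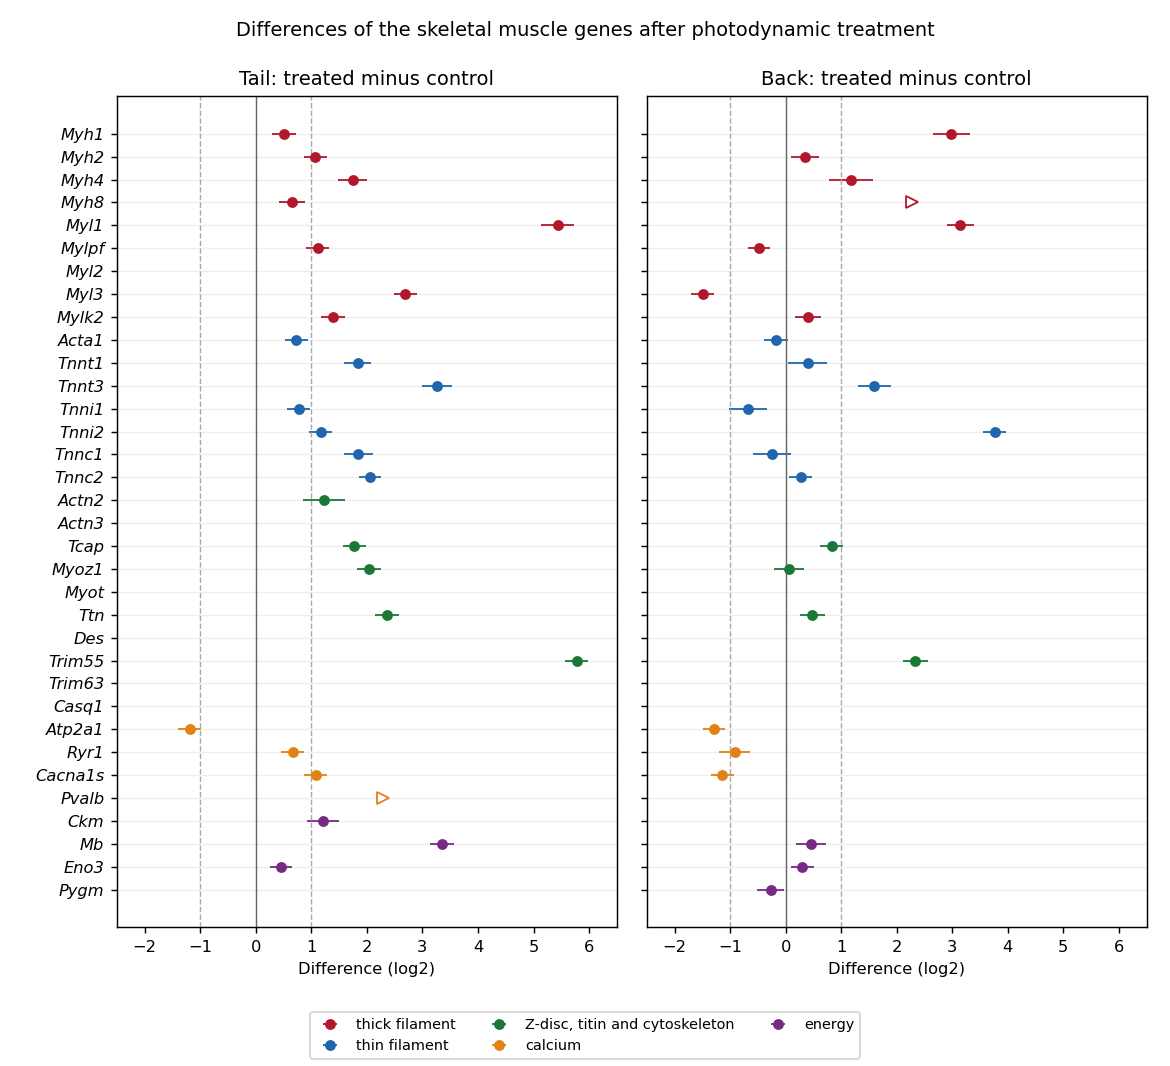
Treated minus control difference (log2) of each skeletal muscle gene in tail (left) and back (right), coloured by role. Points are measured differences with bars of 1 scanner error, open triangles are bounds, dashed lines mark 2-fold, and rows without a symbol had no value. Most tail points lie right of the upper dashed line, and back points lie on both sides of 0.

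Fast and slow isoforms were described apart. Of 13 fast-fibre genes, 9 of the 11 with a value were higher in treated tail and 1 lower (median 1.74), and 5 of 10 were higher and 1 lower in treated back (median 0.76). Of 5 slow-fibre genes, 3 of the 4 with a value were higher in treated tail (median 1.84), and none was higher and 1 lower in treated back (median -0.46). The shares of all genes that were higher were 27.2% in the tail, 46% among dimmer genes there, and 13.6% in the back. After cyclic loess 7 of 12 fast and 3 of 4 slow genes were higher in the tail. The difference between the fibre types was not tested. Side by side over the 24 genes with a value in both skins, 5 were higher in both, 10 were higher in the tail and within 2-fold in the back, 2 were higher in the back alone and 4 were within 2-fold in both. Atp2a1 was lower in both, and Myl3 and Cacna1s were called in opposite directions. The matching counts over all genes were not made. As more of all genes were higher in the tail (27.2%) than in the back (13.6%), the tail-only count was not read as particular to muscle.

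The untreated skins were compared to see whether the body sites differed without treatment. Of 25 muscle genes with a value, 9 were higher in untreated back than in untreated tail (36%, background 27.4%) and 2 were lower (8%, background 17.2%). The median was 0.73, against 0.19 over all genes, although with spike-in scaling it was -0.26, against -0.58. Among dimmer genes, 8 of 22 muscle genes were higher (36.4%), against 35.9% of all dimmer genes, a share near the background. The medians of these were 0.76 and 0.52. After cyclic loess 8 of 28 muscle genes were higher and 3 lower, against 2625 and 2846 of 13498 genes. The medians were then 0.46 and -0.12. Pygm differed the most, with levels of -4.40 in untreated back and -8.01 in untreated tail, a difference of 3.61 on signals of 88.2 and 28.1. Myl1 was higher in untreated back by 2.63, Myl3 by 2.26, Tnnc2 by 2.00, Ttn by 1.70, Tnnt3 by 1.58, Cacna1s by 1.53, Tnnc1 by 1.50 and Myoz1 by 1.11. The 2 lower in untreated back were Ryr1 at -1.68 and Myh1 at -1.47, and the second probe of Myh1 was at 2.43. The untreated tail array is shared by this comparison and the tail comparison. Of the 34 muscle genes, 22 had their lowest level in untreated tail, as did 44.2% of all genes, and 23 had their highest level in treated tail, as did 39.4% of all genes. A property of the untreated tail array and an effect of treatment on the tail cannot be told apart for these genes.

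Between the treated skins, a comparison without the untreated tail array, 3 of 26 muscle genes were higher in treated back (11.5%, background 15.9%) and 8 were lower (30.8%, background 20.5%), with a median of -0.51 against -0.23 over all genes, although with spike-in scaling it was 0.20. Among dimmer genes, 6 of 23 muscle genes were lower (26.1%), against 24.5% of all dimmer genes, with medians of -0.42 and -0.40, so this share too was near the background. The 3 were Tnni2 by 1.82, Myh1 by 1.00 and Pygm by at least 3.48-fold. The 8 lower in treated back were Trim55 at -3.36, Ryr1 at -3.26, Tnni1 at -2.13, Mb at -2.04, Myl3 at -1.93, Eno3 at -1.15, Myh2 at -1.06 and Mylpf at -1.06. Trim55, at a difference of 0.07 between the untreated skins, thus stood 10.3-fold lower in treated back than in treated tail.

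Further muscle genes outside the set were read from 6 lists with 76 genes on the arrays. Of the 58 with a value in the tail, 22 were higher in treated tail (37.9%) and 3 lower, and their median was 0.78. Over all genes the share higher was 27.2%, and over the dimmer genes 46%. Once cyclic loess was applied, 12 of 60 were higher, 8 were lower and the median was 0.20. Of the 53 with a value in the back, 9 were higher in treated back and 4 lower, with a median of 0.02. The other sarcomere and Z-disc genes were higher in 9 of 16 cases in the tail and in none of 14 in the back, where Myom2 and, at -1.01, Klhl40 were lower. After cyclic loess 4 of 16 were higher and 2 lower in the tail. Ldb3, a Z-disc scaffold, was higher by 2.17 in the tail and differed by 0.28 in the back, and Ankrd2, a stretch-responsive protein of muscle, was at 1.98 and -0.18. Myom2, a protein of the M-band, had levels of 0.98 in treated tail, 1.95 in untreated tail, -5.71 in treated back and -3.59 in untreated back. It was thus far higher in both tail arrays than in both back arrays, and it differed by -0.98 in the tail and -2.11 in the back. Srl, the sarcoplasmic reticulum protein sarcalumenin, named here after its values were seen, also divided by site, with levels of -2.01 in treated tail, -2.03 in untreated tail, -5.62 in treated back and -6.03 in untreated back.

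The other genes of calcium release and excitation were higher in 5 of 8 cases in the tail and in 3 of 8 in the back, and none was lower. Sln, which encodes sarcolipin, an inhibitor of the calcium pump, was higher by 2.69 in the tail and 1.23 in the back, and Stac3, which couples the voltage sensor to calcium release, by 1.62 and 1.92. Casq2, the calsequestrin of slow fibres and heart, was higher by 1.48 and 2.31, whereas Scn4a, the sodium channel of muscle, was higher by 2.02 in the tail and differed by -0.10 in the back. The fifth in the tail was Jph2, which joins the store to the cell membrane, at 1.77. Muscle energy enzymes had 3 of 10 higher and 1 lower in the tail. Those higher were the muscle subunits of cytochrome oxidase Cox8b at 2.34 and Cox7a1 at 1.74 and the fatty acid carrier Fabp3 at 1.32, and Gys1, a glycogen synthase, was at -1.08. In the back 2 of 10 were higher, the insulin-responsive glucose transporter Slc2a4 by 3.45 and Gys1 by 3.27, and Phkg1, a subunit of phosphorylase kinase, was at least 4.03-fold lower. Genes of the membrane and dystrophin complex were higher in 1 of 10 cases in the tail, the membrane repair protein Dysf at 1.17, and lower in 1, the sarcoglycan Sgcd at -1.32. In the back 2 of 8 were higher, the laminin receptor subunit Itga7 by 3.05 and the sarcoglycan Sgcb by 1.31. Neuromuscular junction genes were higher in 3 of 6 cases in the tail, the acetylcholine receptor subunits Chrng at 1.49 and Chrne at 1.20 and the enzyme Ache at 1.21, and in 2 of 7 in the back, Dok7 at 1.70 and Ache at 1.01. Among the myogenic regulators 1 of 8 was lower in the tail, Mef2a at -2.34, and 1 of 6 was lower in the back, the differentiation factor Myog at -1.34. Myf5, which marks muscle precursors, and Mstn, the growth inhibitor myostatin, were not well above background on any array.

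Markers of other tissues were read in the same way, with sums of scaled signals in which 1 is the 75th percentile of an array. Their calls stand beside 27.2% of all genes higher and 6.55% lower in the tail, and 13.6% and 12.6% in the back. Of the dimmer genes 46% were higher in the tail. The 34 muscle genes summed to 10.3 in treated tail, 3.05 in untreated tail, 7.18 in treated back and 5.68 in untreated back. A few bright genes weigh most in these sums. Among them were Myl3, at a level of 1.83 in treated tail and 1.39 in untreated back, and Tnni2, at 1.73 in treated back. Adipocyte genes, among them the lipid droplet proteins Plin4 at 2.54 and Cidec at 2.01, were higher in 6 of 7 cases in treated tail, with a median of 2.01, and in 1 of 7 in treated back, while the lipase Lipe was lower in the tail at -1.08. They summed to 28.4 in treated tail, 6.85 in untreated tail, 3.87 in treated back and 4.09 in untreated back, sums that on the tail arrays came mainly from Fabp4, and Lep was not well above background on any array and Adipoq was so in treated back only. Endothelial genes were higher in 4 of 5 cases in treated tail and 3 of 6 in treated back, with the junction protein Cdh5 at 4.02 and 1.91. Their sums were 0.36 in treated tail, 0.10 in untreated tail, 0.30 in treated back and 0.18 in untreated back, and Tek was not well above background on any array. Dermal fibroblast genes were higher in 4 of 7 and 4 of 8 cases, with 1 lower in each skin, and summed to 11.3, 7.31, 28.1 and 12.3 in the same order of arrays. In the tail Fbln1 was higher by 2.14 and Thy1 was at -1.38, and in the back Dcn was higher by 2.93 and Col1a1 was at -1.29. Mfap5 of that list was not well above background on any array.

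Smooth muscle genes, which include those of the muscles that erect hairs, were higher in 4 of 7 cases in treated tail, led by Lmod1 at 3.51, and lower in 2 of 8 in treated back, Cnn1 at -1.57 and Myh11 by at least 3.42-fold. After cyclic loess 1 of 8 smooth muscle genes was higher in the tail, against 14.2% of all genes. Their sums of 99.2 in treated tail, 24.3 in untreated tail, 48.8 in treated back and 71.3 in untreated back came mainly from Acta2, Tagln and Actg2, of which Tagln was saturated on all but treated back and Acta2 in untreated tail, so that the sums of those arrays are lower limits. Cardiac genes were higher in 4 of 8 cases in treated tail and 1 of 8 in treated back, among them Nkx2-5 at 2.81 in the tail and Myl7 at 1.59 and 1.61, with sums of 5.07, 2.52, 3.92 and 4.92 in the same order. The defining cardiac genes Myh6 and Pln were not well above background on any array. Tendon genes were higher in 2 of 5 cases in the tail and in none of 4 in the back, with sums of 0.56, 0.64, 0.37 and 0.34, and Tnmd was not well above background on any array. Their tail share of 40% lay between those of all genes (27.2%) and of the dimmer genes (46%). Cartilage and bone genes were higher in 3 of 5 cases in the tail and in none of 4 in the back, where 1 was lower, with sums of 8.59, 5.96, 1.56 and 8.65 that came mainly from Bglap, and Matn1 and Ibsp were not well above background on any array. After cyclic loess 1 of 6 cartilage and bone genes was higher in the tail. Schwann cell genes were higher in 1 of 4 cases in each skin, with sums of 3.50, 3.74, 1.80 and 1.58. Their share of 25% compares with 27.2% of all genes in the tail and 13.6% in the back. Most keratinocyte markers were saturated, which left 1 basal and 2 suprabasal genes with a value in the tail. In the back 2 of 3 basal genes were higher, with Itga6 at 1.69, and 3 of 3 suprabasal genes were lower, with Krt2 at -6.54 and Ivl at -1.98. Lists of fat, endothelium, fibroblasts, smooth and cardiac muscle, and cartilage with bone thus had medians above 1 in the tail together with the muscle genes, and their part in the muscle result was not tested. After cyclic loess the tail medians were 1.42 for fat, 1.15 for fibroblasts, 1.11 for endothelium, 0.84 for cardiac muscle, 0.30 for smooth muscle and 0.09 for cartilage and bone.

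**Figure D4:**
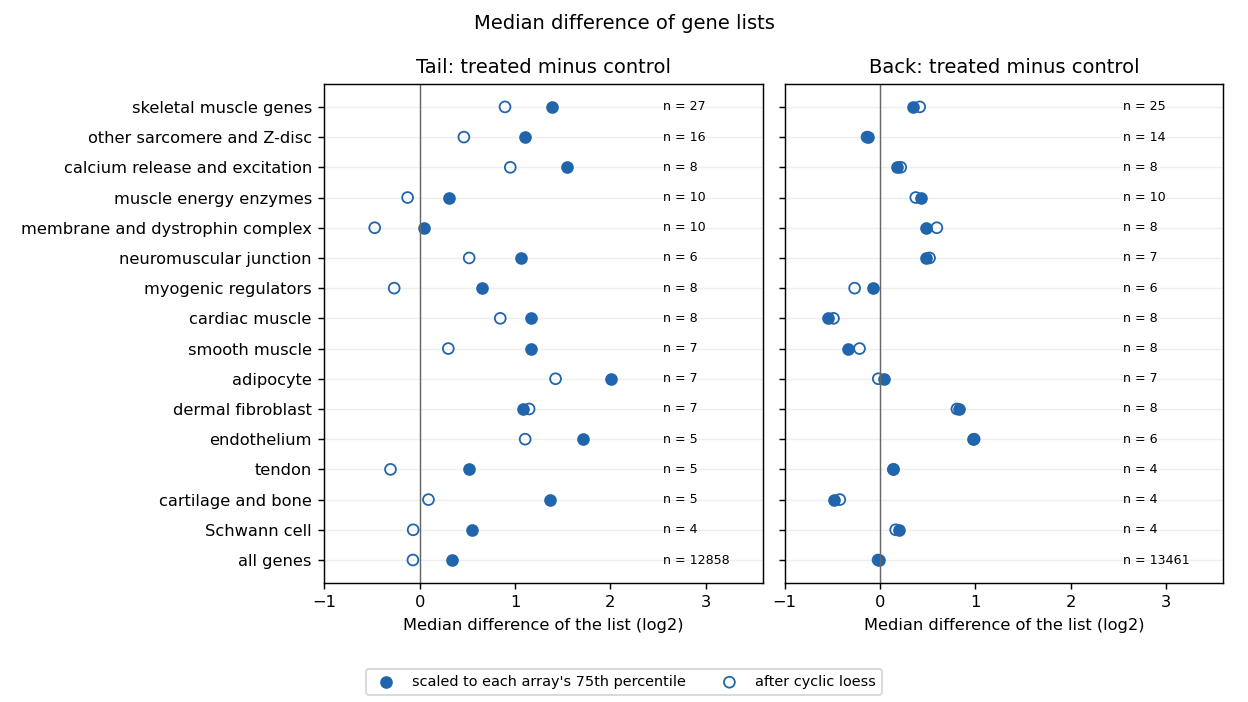
Median treated minus control difference (log2) of the skeletal muscle genes, 6 lists of further muscle genes, lists of other tissues and all genes, in tail (left) and back (right). Filled points are scaled to each array's 75th percentile, open points are after cyclic loess, and n is the number of genes with a value under the first scaling. In the tail most lists lie right of all genes and move left after cyclic loess, and in the back both points nearly coincide.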

How the data were processed

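The muscle genes and all gene lists were chosen with earlier results of these data known. Each group had 1 Agilent single-colour array (design 014868), labelled from 200 ng of RNA, and all 4 arrays lay on 1 slide, where each group has its own position, so the effects of position and of group cannot be told apart. The spot intensity is the deposited processed signal of Agilent Feature Extraction, background-corrected by the scanner software, at version 10.5.1.1 per the file headers and 10.7 per the submitters' processing notes. The authors also deposited a table of log2 values. Its differences equalled those of the scanner signal plus 1 constant, the 75th percentile scaling, within 0.001 for 99.66% to 99.73% of probes, depending on the comparison, and its column medians were 0.099 for treated tail, -0.284 for untreated tail, 0.084 for treated back and -0.031 for untreated back.

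From the intensity, control spots and outlier spots were left out, repeat spots averaged, log2 taken and the array's 75th percentile subtracted. Probes were named by RefSeq accession through the GRCm38.p6 table, which matched 24375 of 41174 probes to 1 symbol. The brightest probe on average stood for a gene. Genes dim or saturated on a single array of a pair were given a bound if it fixed the direction of the difference. Otherwise they had no value. Differences of 1 or more on the log2 scale were called, with no test, since each group has 1 array. The way calls are made was checked on simulated data in which scanner error was the only noise. That check covers the computation and not any difference between animals or arrays. Every gene of the set may be named, and of other lists the members of small counts and up to 4 with large differences. Alternatives were normexp background correction with offset 50, quantile and cyclic loess normalization, spike-in scaling (6 probes), median centring, no filter, bounds left out, a signal of at least 200, outlier spots kept, the mean of a gene's probes and the deposited values. Software was Python with pandas 2.3.3, numpy 2.4.6 and matplotlib 3.10.9, and R 4.3.3 with limma 3.58.1.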

Additional observations from a re-analysis of the deposited data

Results flagged for a closer look

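Myl3 and Cacna1s were called in opposite directions in the skins, at 2.69 in the tail and -1.50 in the back for Myl3 and at 1.08 in the tail and -1.14 in the back for Cacna1s. With 1 array per group, the difference between the skins was not tested. A second, dimmer probe of Myl3 was higher in both skins, the mean of its probes was at -0.27 in the back, and the tail value of Cacna1s was 0.74 after cyclic loess.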

How the results depend on the processing

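No paired analysis was possible because each group has 1 array. Spike-in scaling moved the median of all genes by -1.96 in the tail, -0.44 in the back, -0.77 between untreated skins and 0.81 between treated skins. Under it 4 muscle genes were higher and 10 lower in treated tail (median -0.68), 5 were lower in treated back, 4 were higher and 7 lower in untreated back against untreated tail (median -0.26), and 6 were higher and 5 lower in treated back against treated tail (median 0.20). Tail values that turned were Myh2 at -1.001, Myh4 at -0.33, Mylpf at -0.96, Mylk2 at -0.68, Tnnt1 at -0.23, Tnni2 at -0.90, Tnnc1 at -0.22, Tnnc2 at -0.011, Actn2 at -0.84, Tcap at -0.30, Myoz1 at -0.030, Cacna1s at -0.99 and Ckm at -0.86. With normexp the tail median was 3.57 with 0 lower, the untreated skins had 0 lower, and the treated skins had 1 higher and 23 lower (median -2.38), while Atp2a1 was at 0.78 in the tail and Myh1 at 0.15 between untreated and -1.74 between treated skins. Quantile normalization gave a tail median of 0.95 and 4 lower between untreated skins. Cyclic loess gave a tail median of 0.89 with 2 lower and Actn2 at -0.064. With no filter 2 were lower in the tail. A signal of at least 200 left 6 higher and 0 lower in the tail, 1 higher in the back, 3 higher and 0 lower between untreated skins, and 1 higher and 4 lower between treated skins (median -1.06). With the mean of a gene's probes 0 were lower in the tail, where Atp2a1 was at 1.33, and 1 was lower between untreated skins, where Myh1 was at 0.48. The cause of these changes was not tested. The share of higher calls among all calls over all genes was 80.6% in the tail, and 58.2% under quantile, 54.0% under cyclic loess, 91.5% under normexp and 1.28% under spike-in scaling. In the back it was 51.8%, and 20.7% under spike-in scaling. Between untreated skins it was 61.4%, and 47.6% under quantile, 48.0% under cyclic loess and 22.8% under spike-in scaling. Between treated skins it was 43.7%, and 21.8% under normexp and 81.9% under spike-in scaling. Precision is limited by having 1 array per group and, for most muscle genes, by dim probes.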
